A study of Mus musculus with 12 samples.

Results

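A group of 10 mature neutrophil receptor and activation genes was followed: Csf3r, Fpr1, Fpr2, Trem1, Trem3, Slfn1, Slfn4, Stfa2l1, Retnlg and Asprv1. They were taken by name, 10 of the 21965 genes in the count table, and all 10 had a row and passed the filter on low counts that left 15046 genes tested. The study asked how the leukocyte NADPH oxidase Nox2 shapes inflammation of the oral mucosa, and measured gingival mRNA by RNA-seq in 12 libraries, 3 in each of 4 groups. WT naive libraries came from unligated C57BL/6 mice, WT ligated libraries from C57BL/6 mice 8 days after a ligature was tied around an upper molar, and both CybbKO groups from Cybb-/- mice without and with the same ligature. Cybb encodes the catalytic subunit of Nox2, and the disruption is in the whole animal rather than in neutrophils alone. The labels give an age below 12 weeks. They do not say whether a library is 1 mouse or pooled tissue, so the p-values measure the spread between libraries.

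Neutrophils leave the bone marrow, cross the vessel wall and follow chemical gradients into tissue, and the gingiva is known for a steady flow of them towards the tooth surface. Granulocyte colony-stimulating factor acts through Csf3r on their production and survival, formyl peptides from bacteria and damaged mitochondria act through the receptors Fpr1 and Fpr2, and Trem1 and Trem3 are surface receptors that signal through the adaptor Tyrobp (DAP12). Granule proteins such as Mpo and Elane are transcribed in immature cells of the marrow, whereas receptors such as these are transcribed in mature cells, which is why the group is of use in a tissue sample.

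Expression is given as CPM, read counts relative to the library total after scaling by edgeR's TMM factors. Total counts ran from 27958819 to 42613423 per library. Calls are at an adjusted p below 0.05 in edgeR's quasi-likelihood test over all tested genes. Cybb itself stood at 4.19 to 5.60 CPM in WT naive, 8.41 to 15.2 in WT ligated, 41.6 to 56.3 in CybbKO naive and 51.1 to 63.7 in CybbKO ligated libraries. Its count, taken over all exons, was 9.46-fold higher in naive and 4.70-fold higher in ligated libraries labelled CybbKO than in WT (edgeR adjusted p = 0.000128 and 0.00420), so it does not check the genotype. Whether the genotype labels are exchanged was not tested. The groups are named by their labels, and each genotype direction would turn if they were. Some libraries stood apart from the others of their group. WT naive replicate 3 was high in mucous gland genes (summed CPM of the salivary gland list 29198 against 63.1 and 2761 in the other WT naive libraries). CybbKO ligated replicate 2 was the highest of all libraries in the early granule genes Mpo (1.58 CPM against 0 to 0.214 elsewhere) and Elane (0.294 CPM against 0 to 0.0915 elsewhere). WT naive replicate 1 was high in interferon response genes, with a summed CPM of 138 against 48.5 and 43.1 in the other WT naive libraries.

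Promoter windows of the RefSeq annotation (GRCm38.p6) were available for 9 of the 10 genes, all but Trem3. The sequences below are the 250 bases before the annotated start, 5′ to 3′ on the gene's strand, for the genes with a match to 1 of 4 motifs and for Fpr1, the neighbour of Fpr2. The capitals mark the matches.
Slfn1, chr11:83116570-83116819, plus strand: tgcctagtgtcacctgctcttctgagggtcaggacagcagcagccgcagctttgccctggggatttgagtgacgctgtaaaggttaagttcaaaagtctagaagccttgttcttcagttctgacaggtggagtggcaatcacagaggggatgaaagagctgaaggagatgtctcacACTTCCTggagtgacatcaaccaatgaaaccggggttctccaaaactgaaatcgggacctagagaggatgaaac
Slfn4, chr11:83174936-83175185, plus strand: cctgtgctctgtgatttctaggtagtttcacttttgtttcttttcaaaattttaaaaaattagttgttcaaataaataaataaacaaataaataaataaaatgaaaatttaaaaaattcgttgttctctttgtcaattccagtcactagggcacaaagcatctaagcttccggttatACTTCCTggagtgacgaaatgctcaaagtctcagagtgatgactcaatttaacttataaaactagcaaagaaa
Trem1, chr17:48232489-48232738, plus strand: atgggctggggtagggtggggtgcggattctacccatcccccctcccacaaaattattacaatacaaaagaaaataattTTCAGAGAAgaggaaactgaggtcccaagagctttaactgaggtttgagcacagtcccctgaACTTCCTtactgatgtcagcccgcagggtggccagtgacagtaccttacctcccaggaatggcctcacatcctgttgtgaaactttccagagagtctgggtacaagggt
Fpr1, chr17:17883940-17884189, minus strand: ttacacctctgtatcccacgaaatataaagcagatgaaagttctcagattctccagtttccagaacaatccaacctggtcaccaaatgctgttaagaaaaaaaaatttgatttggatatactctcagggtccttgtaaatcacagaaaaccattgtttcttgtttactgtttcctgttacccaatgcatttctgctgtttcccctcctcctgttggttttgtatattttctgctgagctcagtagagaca
Fpr2, chr17:17887574-17887823, plus strand: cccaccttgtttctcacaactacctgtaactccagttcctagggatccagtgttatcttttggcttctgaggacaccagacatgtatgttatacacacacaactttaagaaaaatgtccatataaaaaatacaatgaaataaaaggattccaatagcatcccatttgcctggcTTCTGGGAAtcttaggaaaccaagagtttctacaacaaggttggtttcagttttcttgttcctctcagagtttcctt
Retnlg, chr16:48872358-48872607, plus strand: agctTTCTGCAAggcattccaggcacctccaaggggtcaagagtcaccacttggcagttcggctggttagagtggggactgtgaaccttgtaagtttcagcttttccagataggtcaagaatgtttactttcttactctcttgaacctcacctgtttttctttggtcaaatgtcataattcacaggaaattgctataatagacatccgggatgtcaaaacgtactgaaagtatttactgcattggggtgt
The capitals are AGGAAGT, the core bound by the myeloid factor PU.1, in Slfn1, Slfn4 and Trem1, each on the opposite strand. They are TTCNNNGAA, the STAT motif, in Trem1 (the first match from the left) and Fpr2, and TTGCNNAA, a C/EBP-type motif, on the opposite strand in Retnlg. An interferon-stimulated response element was the fourth motif, and no window of the 9 genes held it. On both strands of 32851 windows of 300 bases, 250 before to 50 after the start, the PU.1 letters were found in 9.35%, the C/EBP letters in 10.8%, the STAT letters in 8.30% and the interferon letters in 3.44%. No match was found for Csf3r, Fpr1, Stfa2l1 and Asprv1, which says only that these letters are absent from these windows. The PU.1 letters of Slfn1 and Slfn4 begin at nearly the same distance from the start, at positions -74 and -73. They lie in a run of 15 bases that both windows share, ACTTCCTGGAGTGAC, and which 2 of the 32851 windows held. A match is a description of the letters and not of binding.

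Of the 10 genes, 9 shared an order of group means. Each was lowest in WT naive, then CybbKO naive, then WT ligated, and highest in CybbKO ligated libraries. In that order the libraries of both naive groups overlapped for all 9 genes, where 2.08% of tested genes had every CybbKO naive library above the WT naive ones. All WT ligated libraries were above the CybbKO naive ones for 1 gene, Slfn4, against 17.4% of tested genes, and all CybbKO ligated libraries were above the WT ligated ones for 8, against 5.005%. Asprv1 had another pattern and is described last.

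**Figure D1:**
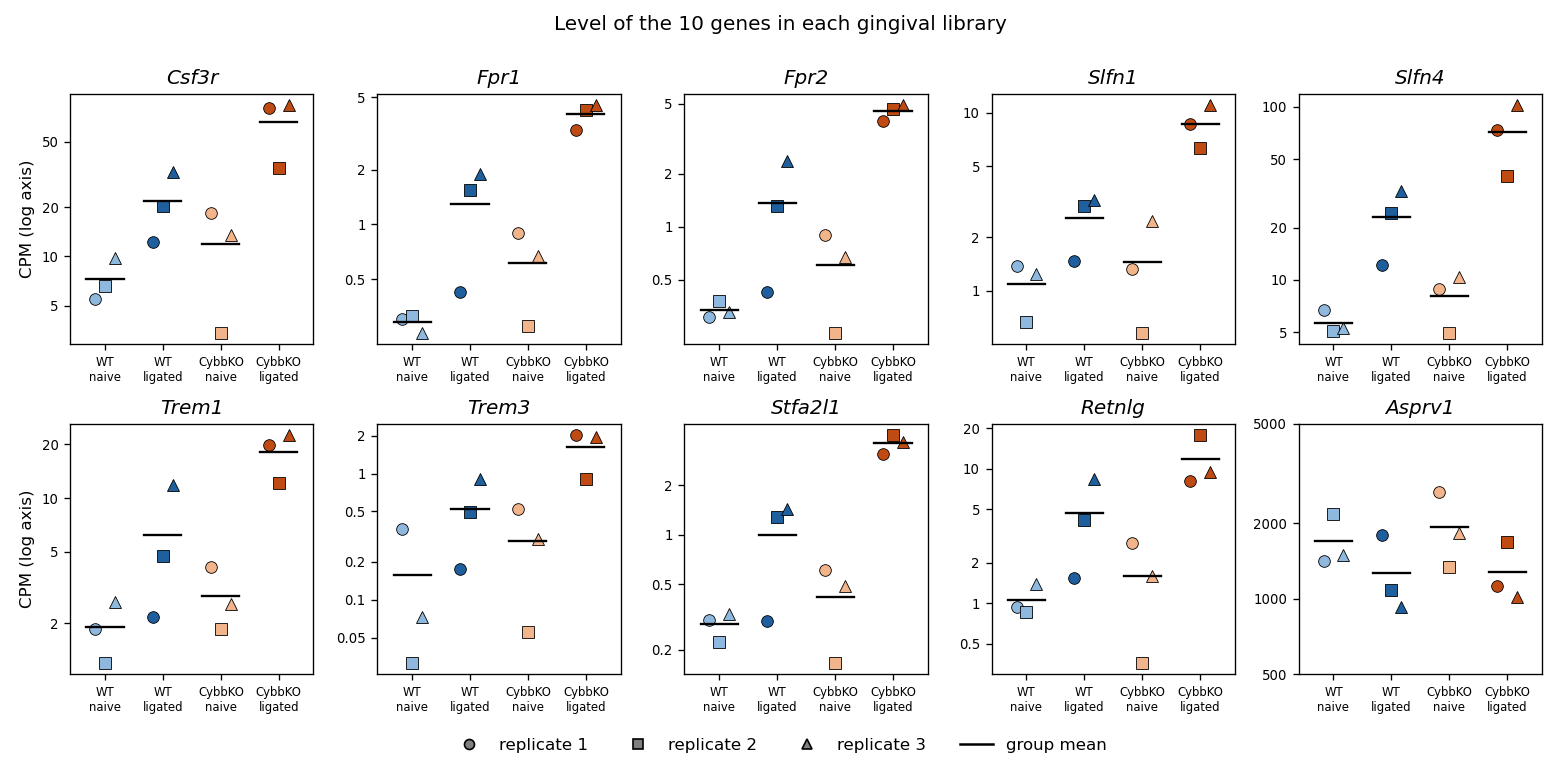
CPM of each of the 10 genes on a log axis, with 1 point per library, the replicate number as the marker and a bar at the mean of 3 libraries. The CybbKO ligated libraries are above every WT ligated library for 8 genes, whereas Retnlg overlaps and Asprv1 varies between 925 and 2659 CPM with no group apart.

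Csf3r (ENSMUSG00000028859), the receptor for granulocyte colony-stimulating factor, lies on the plus strand of chromosome 4 of GRCm38, from 126024550 to 126044440. Csf3r stood at 5.51, 6.64 and 9.73 CPM in the WT naive and at 18.5, 3.44 and 13.6 CPM in the CybbKO naive libraries. With ligature the WT libraries held 12.3, 20.4 and 32.9 CPM and the CybbKO libraries 79.7, 34.5 and 83.5 CPM. Every ligated library exceeded the naive libraries of its own genotype, while CybbKO naive replicates 1 and 3 exceeded WT ligated replicate 1. In WT the log2 fold change with ligature was 1.58 (SE 0.55, adjusted p = 0.135), and in the libraries labelled CybbKO it was 2.48 (SE 0.56, adjusted p = 0.0146), a 5.57-fold rise. Without CybbKO ligated replicate 1 or 3 this p was 0.0532 or 0.0537.

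Fpr1 (ENSMUSG00000045551; chromosome 17, minus strand, 17876471 to 17883940) and Fpr2 (ENSMUSG00000052270; chromosome 17, plus strand, 17887824 to 17893952) encode receptors for formylated peptides, and Fpr2 also binds annexin A1 and lipid mediators. They start 3883 bases apart, facing away from each other. Naive WT libraries held 0.305, 0.316 and 0.255 CPM of Fpr1, and naive CybbKO libraries held 0.895, 0.277 and 0.671 CPM. After ligature the values were 0.423, 1.54 and 1.89 CPM in WT and 3.32, 4.25 and 4.52 CPM in CybbKO. Both ligated groups lay above the naive libraries of their genotype, and WT ligated replicate 1 was below CybbKO naive replicates 1 and 3. The level of Fpr2 was 0.305, 0.38 and 0.328 CPM in WT naive and 0.423, 1.31 and 2.36 CPM in WT ligated libraries. Among CybbKO libraries it was 0.895, 0.25 and 0.671 CPM when naive and 4, 4.68 and 4.91 CPM when ligated. Fpr2 followed Fpr1 closely in every group. The root mean square difference of their centred log2 CPM over 12 libraries was 0.165, the smallest of all 45 pairs of the 10 genes. Their raw counts were equal in 4 libraries, at totals of 9 to 215 reads per library for Fpr2. Of the 1296 exon bases of Fpr2, 48 are shared with Fpr3, a gene with 0 counts in all libraries. With ligature, Fpr1 rose 6.54-fold in the libraries labelled CybbKO (log2 2.71, SE 0.51, adjusted p = 0.00648), and Fpr2 rose 7.46-fold (log2 2.90, SE 0.55, adjusted p = 0.00668). In WT the log2 fold changes were 2.12 (SE 0.55, adjusted p = 0.0601) and 2.00 (SE 0.58, adjusted p = 0.0821).

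Trem1 (ENSMUSG00000042265; chromosome 17, plus strand, 48232768 to 48246924) amplifies the response to microbial products, and Trem3 (ENSMUSG00000041754; plus strand, 48247777 to 48258841) is its neighbour, 852 bases downstream. Trem1 stood at 1.86, 1.2 and 2.62 CPM in the WT naive and at 4.13, 1.86 and 2.56 CPM in the CybbKO naive libraries. With ligature the WT libraries held 2.17, 4.74 and 11.8 CPM and the CybbKO libraries 19.7, 12.1 and 22.4 CPM. The CybbKO ligated libraries were above all others, and WT ligated replicate 1 was below the highest WT naive library. Naive WT libraries held 0.365, 0.0316 and 0.0729 CPM of Trem3, and naive CybbKO libraries held 0.52, 0.0555 and 0.305 CPM. After ligature the values were 0.174, 0.497 and 0.908 CPM in WT and 2.01, 0.909 and 1.96 CPM in CybbKO. Trem3 was the least expressed of the 10 genes, with 1 to 86 reads per library, and its WT groups overlapped. Trem1 rose 6.34-fold with ligature in the libraries labelled CybbKO (log2 2.66, SE 0.55, adjusted p = 0.00977). Trem3 did not pass the test there, with a log2 fold change of 2.47 (SE 0.79, adjusted p = 0.0607), although its CybbKO ligated libraries were all above the naive ones. Without CybbKO ligated replicate 2, the library with the early granule genes, its adjusted p was 0.0395.

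Slfn1 (ENSMUSG00000078763; chromosome 11, plus strand, 83116849 to 83122670) and Slfn4 (ENSMUSG00000000204; plus strand, 83175186 to 83190216) belong to the Schlafen family, interferon-inducible regulators of leukocyte growth and activation, and lie 52515 bases apart. The level of Slfn1 was 1.37, 0.664 and 1.24 CPM in WT naive and 1.47, 3.01 and 3.24 CPM in WT ligated libraries. Among CybbKO libraries it was 1.33, 0.583 and 2.47 CPM when naive and 8.64, 6.31 and 11.1 CPM when ligated. Ligated libraries were above the naive libraries of the same genotype. Slfn4 stood at 6.7, 5.06 and 5.25 CPM in the WT naive and at 8.86, 4.97 and 10.5 CPM in the CybbKO naive libraries. With ligature the WT libraries held 12.2, 24.4 and 32.9 CPM and the CybbKO libraries 74, 39.9 and 102 CPM. Slfn4 was the only 1 of the 10 genes for which every WT ligated library was above every CybbKO naive library. It was also the member with the smallest adjusted p in both ligature comparisons. It rose 4.08-fold in WT (log2 2.03, SE 0.41, adjusted p = 0.0276) and 8.91-fold in the libraries labelled CybbKO (log2 3.16, SE 0.42, adjusted p = 0.00207). Slfn1 rose 5.95-fold in the libraries labelled CybbKO (log2 2.57, SE 0.49, adjusted p = 0.00679; 3.18 without CybbKO naive replicate 3), and its log2 fold change in WT was 1.24 (SE 0.49, adjusted p = 0.188). Schlafen genes are a multigene family, so reads shared between copies may have been split or dropped by the counting.

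Stfa2l1 (ENSMUSG00000059657; chromosome 16, plus strand, 36156811 to 36161953) is a stefin A gene, of a family of inhibitors of lysosomal cysteine proteases. Naive WT libraries held 0.305, 0.221 and 0.328 CPM of Stfa2l1, and naive CybbKO libraries held 0.606, 0.166 and 0.488 CPM. After ligature the values were 0.299, 1.28 and 1.43 CPM in WT and 3.11, 4.04 and 3.65 CPM in CybbKO. WT ligated replicate 1 was within the WT naive range, and all CybbKO ligated libraries were above every other library. It rose 8.53-fold with ligature in the libraries labelled CybbKO (log2 3.09, SE 0.55, adjusted p = 0.00488) and had a log2 fold change of 1.81 in WT (SE 0.57, adjusted p = 0.106). The stefin A genes lie in a cluster of near copies, so its counts are uncertain in the same way as those of the Schlafen genes.

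Retnlg (ENSMUSG00000022651; chromosome 16, plus strand, 48872621 to 48874496) encodes resistin-like gamma, a secreted protein of bone marrow and neutrophils. The level of Retnlg was 0.944, 0.854 and 1.39 CPM in WT naive and 1.54, 4.13 and 8.38 CPM in WT ligated libraries. Among CybbKO libraries it was 2.83, 0.361 and 1.59 CPM when naive and 8.12, 17.8 and 9.49 CPM when ligated. Here CybbKO ligated replicate 2 was the highest of all libraries, and the other CybbKO ligated libraries were near WT ligated replicate 3. Retnlg rose 7.41-fold with ligature in the libraries labelled CybbKO (log2 2.89, SE 0.69, adjusted p = 0.0186), and without CybbKO naive replicate 3 the adjusted p was 0.0666. Without CybbKO naive replicate 1, its log2 fold change was 3.60 (adjusted p = 0.0219). In WT its log2 fold change was 2.14 (SE 0.69, adjusted p = 0.112).

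Per length of exon, in RPKM, the order of levels was the same in both ligated groups. In CybbKO ligated libraries the means were 19.9 for Retnlg, 18.3 for Csf3r and 18.2 for Slfn4, 3 genes whose libraries overlapped. Stfa2l1 followed at 8.59 RPKM, apart from Slfn4, then Trem1 at 6.03, Slfn1 at 4.65, Fpr2 at 3.49 and Fpr1 at 3.04, each overlapping with the next. Trem3, at 1.64 RPKM, was apart from Fpr1.

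In WT, 9 of the 10 genes had a positive log2 fold change with ligature, and 1, Slfn4, was called, where 2.31% of all tested genes were called higher. For 6 genes the 3 ligated libraries were all above the 3 naive ones, against 13.3% of tested genes. The median log2 fold change of the 10 genes was 1.76, and that of all tested genes was -0.03. DESeq2 called 7 of the 10 genes, against 5.64% of the genes it tested. Single libraries decided the WT result. WT ligated replicate 1 was the lowest of its group for all 9 genes other than Asprv1 and WT ligated replicate 3 the highest for all 9. Without replicate 1, Fpr1, Fpr2 and Stfa2l1 were called beside Slfn4. The call of Slfn4 was lost without WT ligated replicate 2 (adjusted p = 0.0804), WT ligated replicate 3 (0.0998), WT naive replicate 1 (0.0720) or WT naive replicate 2 (0.128), while its log2 fold change stayed between 1.69 and 2.37.

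Ligature in mice labelled CybbKO gave 8 of the 10 genes called higher, where 9.95% of all tested genes were. The 2 not called were Trem3 and Asprv1. For 9 genes the ligated libraries were all above the naive ones, against 18.5% of tested genes, and DESeq2 called the same 9, against 12.0% of the genes it tested. The median log2 fold change was 2.69, and that of all tested genes was -0.03. Leaving out any single library gave 7 to 9 called genes. Without WT naive replicate 3 and CybbKO ligated replicate 2, an alternative added after the data were seen, 9 were called. CybbKO naive replicate 2 was the lowest of its group for all 9 genes other than Asprv1.

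**Figure D2:**
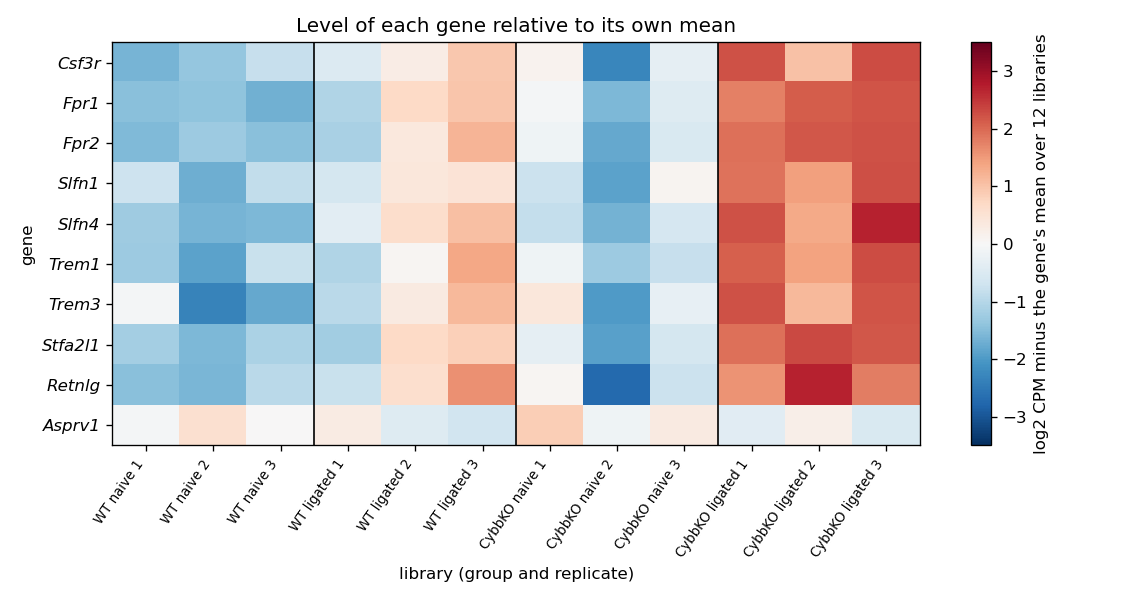
Log2 CPM of each of the 10 genes in each of the 12 libraries, minus the gene's own mean, with red above and blue below it. The 3 CybbKO ligated libraries are red and CybbKO naive replicate 2 is blue for 9 genes, WT ligated replicate 1 is blue where replicates 2 and 3 are red, and the Asprv1 row stays between -0.67 and 0.85.

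The comparison of genotypes in ligated tissue asks whether the levels of these genes differ there, and includes any difference already present in naive tissue. All 10 log2 fold changes of the libraries labelled CybbKO against WT were positive, from 0.01 for Asprv1 and 1.33 for Retnlg to 1.84 for Stfa2l1, with a median of 1.63 against 0.01 over all tested genes. The sign for Asprv1 turned with DESeq2 (-0.003837) and under 8 of 13 alternatives in all. No gene of the 10 was called by edgeR, which called 0.00665% of tested genes higher, a single gene, Cybb. At an unadjusted p below 0.05 stood 8 of the 10, all higher, against 2.87% of tested genes that were higher at that p. The CybbKO ligated libraries were all above the WT ligated ones for 8 genes, against 5.005% of tested genes. DESeq2 called 1, Slfn4 (adjusted p = 0.0348), against 0.0997% of the genes it tested. Slfn4 was 3.11-fold higher by edgeR (log2 1.64, SE 0.40, adjusted p = 0.996), Stfa2l1 3.59-fold (log2 1.84, SE 0.51) and Slfn1 3.37-fold (log2 1.75, SE 0.47). The exact two-sided permutation test of 3 libraries against 3 cannot give a p below 0.1, and it gave 0.1 for the 8 genes whose libraries were apart. The 10 genes were chosen with results of these libraries known, so the direction they share is no independent evidence.

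In naive tissue the libraries labelled CybbKO were higher on average for all 10 genes, with log2 fold changes from 0.20 for Asprv1 to 1.06 for Fpr1. The sign turned for Slfn1 without CybbKO naive replicate 3 (-0.19), and for Retnlg (-0.13) and Asprv1 (-0.098) without CybbKO naive replicate 1. None of the 10 was called by edgeR or DESeq2, none had an unadjusted p below 0.05 (0.611% of tested genes did in the higher direction, and 0.00665% were called higher), and for none were the libraries apart (2.08% of tested genes had all CybbKO naive libraries above the WT naive ones). The spread among the CybbKO naive libraries was wide. Csf3r varied from 3.44 to 18.5 CPM and Retnlg from 0.361 to 2.83 CPM within that group. The difference between the ligature responses of the genotypes was positive for 9 genes, from 0.59 for Fpr1 to 1.34 for Slfn1 on the log2 scale. For Trem3 it turned to -0.81 without WT naive replicate 1. No member passed it at an unadjusted p below 0.05 in edgeR (2 did in DESeq2), against 1.79% of tested genes that did so in the higher direction, and 0 of all tested genes were called by edgeR or DESeq2. The larger rise in the libraries labelled CybbKO did not pass that test after adjustment. For Slfn4 the difference was 1.13 (SE 0.56, unadjusted p = 0.0694, adjusted p = 1.00 in edgeR) and for Slfn1 1.34 (SE 0.68, unadjusted p = 0.0734).

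**Figure D3:**
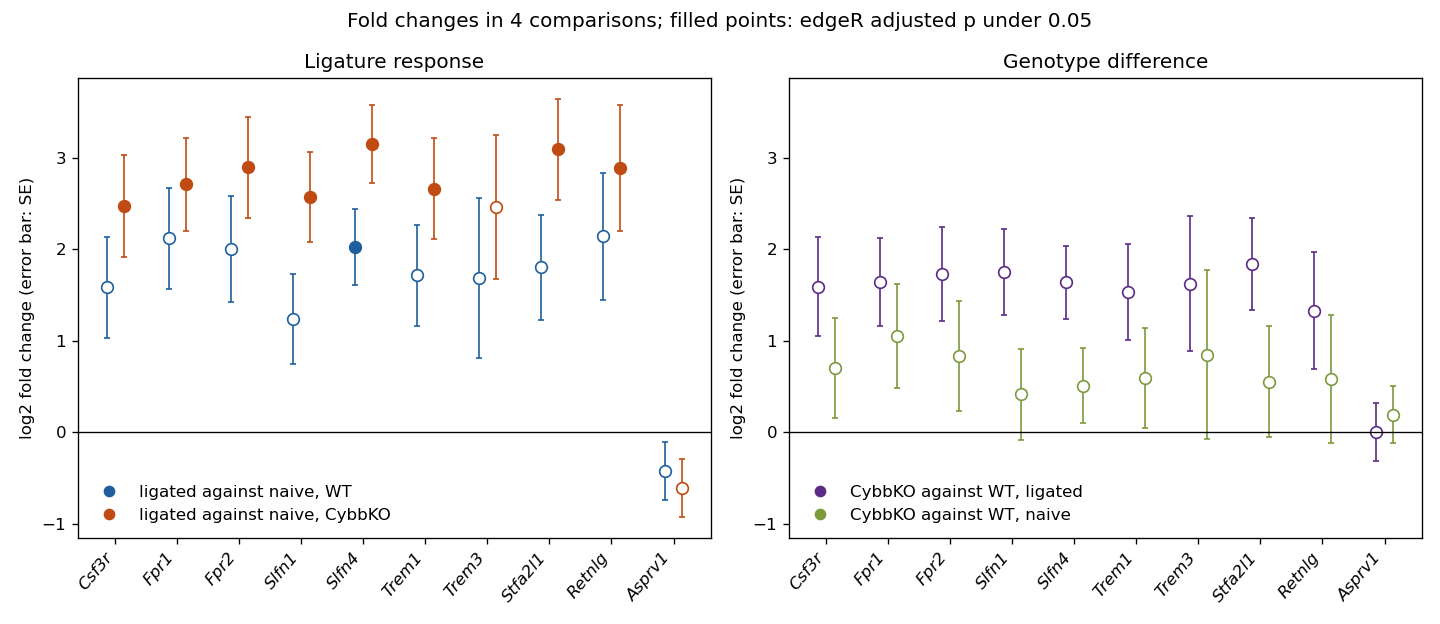
Log2 fold change of the 10 genes with its standard error, with the ligature responses on the left and the genotype differences on the right, and with filled points for an adjusted p below 0.05. On the left 8 CybbKO points and 1 WT point are filled. On the right none is filled, and the ligated differences lie between 1.33 and 1.84 for the 9 genes other than Asprv1.

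Members of the same gene families were compared next, with 9.95% of all tested genes called higher with ligature in the libraries labelled CybbKO and 2.31% in WT. Of the 7 formyl peptide receptor genes, Fpr1 and Fpr2 were the ones with counts, and Fpr3, Fpr-rs3, Fpr-rs4, Fpr-rs6 and Fpr-rs7 had 0 counts in all libraries. Of the 5 tested TREM genes, 3 were called with ligature in the libraries labelled CybbKO: Trem1, Trem2 (log2 2.07, SE 0.49, adjusted p = 0.0183), a receptor of macrophages, and Treml4 (log2 3.15, SE 0.67, adjusted p = 0.0113). Treml2 stood at a log2 fold change of 1.65 (adjusted p = 0.0519), all 5 log2 fold changes were positive, and DESeq2 called Treml2 (adjusted p = 0.0257) and Trem3 (adjusted p = 0.0228). In the Schlafen family 6 of 7 tested genes were called in the libraries labelled CybbKO, with Slfn2 at 1.51, Slfn3 at 1.61, Slfn5 at 1.17 and Slfn8 at 1.18, all smaller on the log2 scale than Slfn1 and Slfn4. Slfn9 stood at -0.53 and was not called. Slfn5 and Slfn4 were the Schlafen genes called in WT, Slfn5 with a log2 fold change of 1.07 (SE 0.24, adjusted p = 0.0387). Between the genotypes in ligated tissue all 7 tested Schlafen genes had positive log2 fold changes and none was called by edgeR: 1.75 for Slfn1, 1.64 for Slfn4, 0.83 for Slfn2 (SE 0.31), 0.56 for Slfn8 (SE 0.34), 0.19 for Slfn9, 0.16 for Slfn5 (SE 0.24) and 0.15 for Slfn3 (SE 0.25).

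Of the 9 tested stefin A genes, 4 were called with ligature in the libraries labelled CybbKO: Stfa2l1, Gm5483 (log2 2.83, adjusted p = 0.0147), Gm5416 (log2 3.70, adjusted p = 0.0119) and Stfa1 (log2 3.60, adjusted p = 0.00670). Stfa1 was low, with 0 to 0.122 CPM in the CybbKO naive and 0.470 to 1.23 CPM in the CybbKO ligated libraries. The abundant Csta1 stood at 121 to 281 CPM in every group and was not called (log2 0.26, adjusted p = 0.463), nor were Stfa2, Stfa3, BC100530 and BC117090. In the resistin family Retnlg was the called gene. Retnla, which alternatively activated macrophages express, stood at 0.866 to 5.40 CPM in CybbKO naive and 0.0228 to 0.722 CPM in CybbKO ligated libraries (log2 -3.43, SE 1.21, adjusted p = 0.0860). Retn was too low to be tested and reached its highest level, 2.49 CPM, in CybbKO ligated replicate 2, and Retnlb had 0 counts in all libraries.

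**Figure D4:**
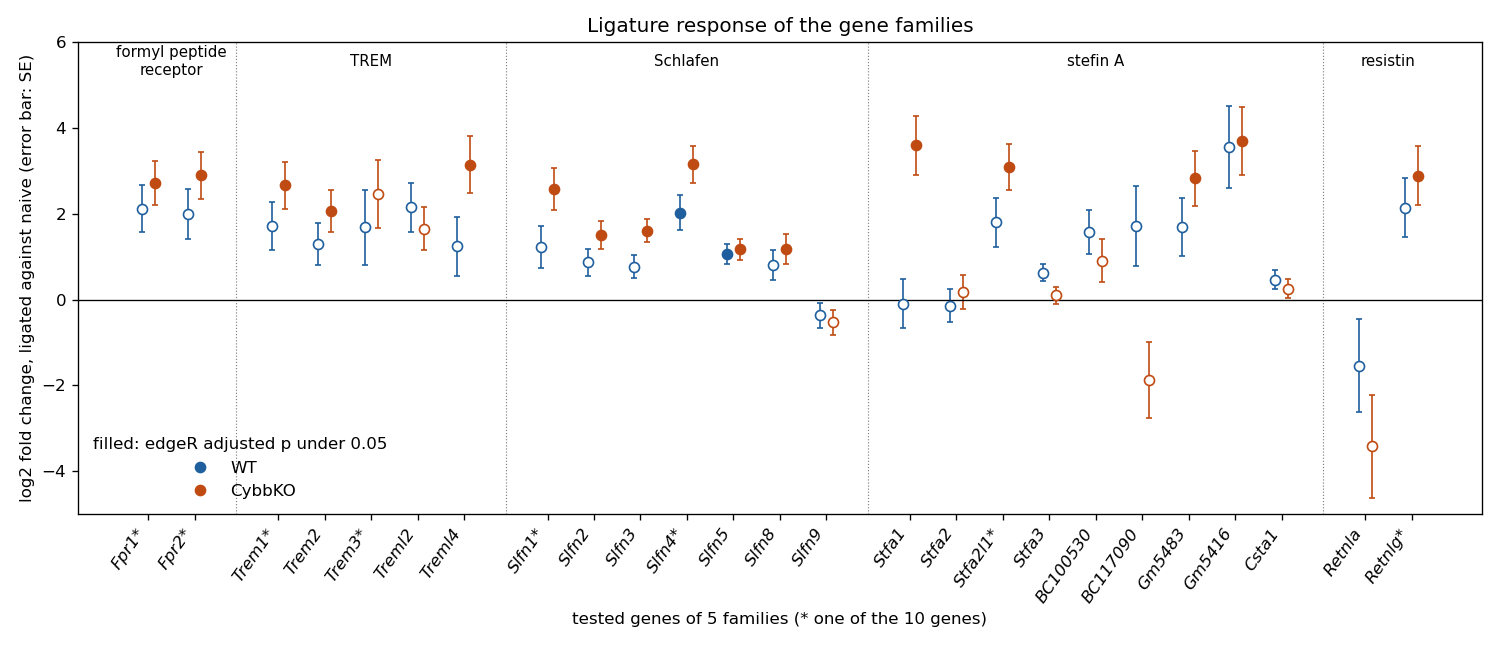
Log2 fold change with ligature and its standard error for the tested genes of 5 families, WT in blue and CybbKO in orange, with filled points for an adjusted p below 0.05 and a star on the 10 genes followed here. The filled CybbKO points of the Schlafen family run from 1.17 to 3.16, and the CybbKO points of the stefin A genes split between 4 filled ones above 2.8 and 5 open ones below 1.

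Among ligands and signalling partners of these receptors, 14 genes were tested. With ligature edgeR called none in WT, where DESeq2 called Saa3 (adjusted p = 0.0121) and Tyrobp (adjusted p = 0.0232) and where 0.884% of all tested genes were called lower and 2.31% higher, and it called 6 higher in the libraries labelled CybbKO, where 9.95% of all tested genes were. These included Tyrobp, the adaptor of Trem1 and Trem3 (log2 1.73, SE 0.29, adjusted p = 0.00402), and Spi1, which encodes PU.1 (log2 1.50, SE 0.37, adjusted p = 0.0229). They also included Stat3 (log2 0.65, adjusted p = 0.00626) and its target Socs3 (log2 1.67, adjusted p = 0.0146), both downstream of the receptor Csf3r. The others were the acute-phase genes Saa3 (log2 7.12, adjusted p = 0.00364) and Saa1 (log2 4.69, adjusted p = 0.00733), whose product is a ligand of Fpr2. Saa1 stood at 0.0747 to 0.314 CPM in WT ligated and 0.829 to 9.77 CPM in CybbKO ligated libraries. DESeq2 called that genotype difference (log2 4.23, adjusted p = 0.000837) and edgeR did not. Csf3, the ligand of Csf3r, varied from 2.88 to 10.9 CPM in WT naive and from 3.66 to 21.1 CPM in WT ligated libraries. Its CybbKO ligated libraries, at 11.2 to 19.3 CPM, were all above the CybbKO naive ones, at 3.05 to 10.04 CPM. It was not called in either genotype (log2 1.22, SE 0.66, adjusted p = 0.263 in the libraries labelled CybbKO). Anxa1, a ligand of Fpr2, was abundant at 1619 to 4611 CPM and not called (log2 0.46, adjusted p = 0.362).

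Of the 28 tested genes in a list of other mature neutrophil genes, 23 were called higher with ligature in the libraries labelled CybbKO, where 9.95% of all tested genes were, and 6 in WT, where 2.31% were. Csf2rb, the shared receptor chain for GM-CSF and IL-3, rose in both (log2 2.10, adjusted p = 0.00200 in the libraries labelled CybbKO and 1.13, adjusted p = 0.0427 in WT), as did the integrin chain Itgb2 (log2 1.68 and 1.07). Clec4e (log2 3.65) and Clec4d (log2 3.36), lectin receptors for microbial and damaged-cell ligands, were called in the libraries labelled CybbKO. Clec4e was called in WT too (log2 2.51, adjusted p = 0.0374), and Clec4d stood at 2.04 there (adjusted p = 0.0615). Of the 12 tested neutrophil granule and identity genes, 8 were called in the libraries labelled CybbKO, against the same 9.95%. Among them were S100a8 (log2 2.80) and the defining surface gene Ly6g (log2 3.76, adjusted p = 0.0208). In WT edgeR called 1 of the 12, S100a8 (log2 2.45, adjusted p = 0.0427), against 2.31%. Ly6g stood at 0.0305 to 0.0866 CPM in CybbKO naive and 0.235 to 1.77 CPM in CybbKO ligated libraries. Mpo, Elane, Prtn3 and Ctsg, genes of early granules, were too low to be tested and stood at or below 0.214 CPM in every library other than CybbKO ligated replicate 2. In these bulk samples more neutrophils and more RNA per neutrophil cannot be told apart.

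Genes of other cell types moved with the same comparisons, and their counts stand beside the same 9.95% called higher in the libraries labelled CybbKO and 2.31% in WT. All 14 tested monocyte and macrophage genes had positive log2 fold changes in the libraries labelled CybbKO and 13 were called, among them Csf1r (log2 1.62) and Lyz2 (log2 1.79), and 3 were called in WT. Their summed CPM ran from 255 to 264 in CybbKO naive and 450 to 689 in CybbKO ligated libraries. Of 8 fibroblast genes 7 were called in the libraries labelled CybbKO, with Col3a1 at a log2 fold change of 2.96, and of 7 endothelial genes 5. In WT 3 of the 8 fibroblast genes were called, Col3a1 among them (log2 2.02), and 3 of the 7 endothelial genes. In the cornified epithelium list 3 of 14 genes were called lower in the libraries labelled CybbKO, where 3.04% of all tested genes were. These were Krt10, Krt1 and Klk5. The WT response also had 3 of 14 called lower, Krt10, Klk5 and Casp14, where 0.884% of all tested genes were. Between the genotypes in ligated tissue the median was 0.57 for the monocyte and macrophage list, 0.32 for the fibroblast list and 1.01 for the interferon response list, with no gene of these lists called by edgeR or DESeq2. The summed CPM of the 19 interferon response genes was 52.1 to 109 in WT ligated and 118.5 to 239 in CybbKO ligated libraries. It was 43.1 to 138 in WT naive and 53.3 to 147 in CybbKO naive libraries, so both naive groups reached into the CybbKO ligated range. With ligature 1 of the 19 was called higher in the libraries labelled CybbKO, against 9.95% of all tested genes, and none in WT. In the other lists, against 9.95% of all tested genes called higher and 3.04% lower, 2 of 12 T and NK cell genes were called higher, 2 of 5 B and plasma cell genes and 2 of 7 basal epithelium genes lower, and none of the eosinophil and mast cell, skeletal muscle or salivary gland genes was called by edgeR with ligature in the libraries labelled CybbKO. DESeq2 called the salivary amylase gene Amy1 lower (adjusted p = 0.0379). The part of these genes in the results for the 10 genes was not tested.

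**Figure D5:**
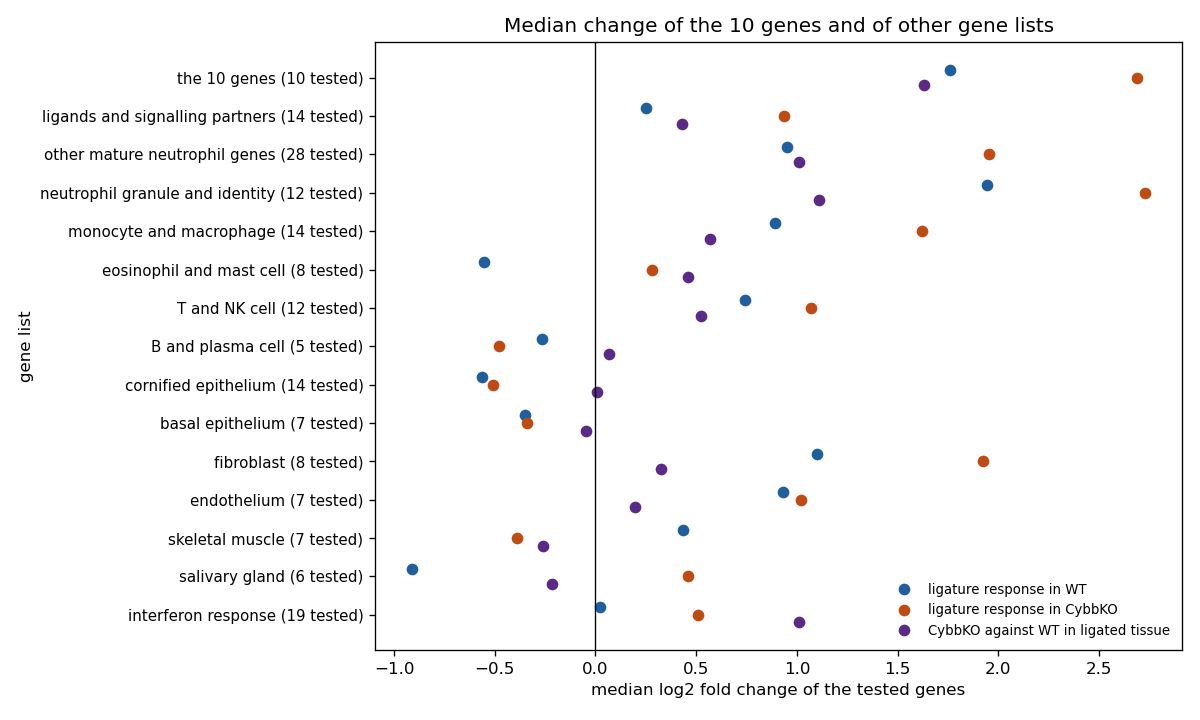
Median log2 fold change of the tested genes of each list in 3 comparisons. The 10 genes lie at 1.76, 2.69 and 1.63, near the neutrophil granule and identity list in the ligature responses, whereas the cornified and basal epithelium lists lie below 0 in both ligature responses.

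The genes with the most similar pattern were sought among all tested genes other than the 10. The measure was the root mean square difference of centred log2 CPM over the 12 libraries. For Fpr1, Fpr2 and Stfa2l1 the same 3 genes came first: Cd300lf, an inhibitory receptor of myeloid cells, Hdc, the enzyme of histamine synthesis, and Mmp8, the neutrophil collagenase. Hdc was at a distance of 0.259 from Fpr2. Among the 3 genes nearest to Csf3r were Il1b (0.308), the inflammatory cytokine interleukin-1 beta, and Cd300lb (0.334). Trem1 was closest to Il1b (0.272), Hdc and Sycp2. Trem3 was closest to Il1b (0.472), and Tnfrsf9 (0.512) was also among its nearest 3. Slfn4 was closest to Lilr4b (0.248), Clec4e and Clec4d, and Slfn1 to Sirpb1b (0.332), Serpina3g and Nfe2. Retnlg was closest to Cd300lf (0.320), Mmp8 and the stefin A gene Gm5483. These distances describe 12 libraries that share their groups, and the values of Il1b show the pattern: 12.2 to 17.5 CPM in WT naive, 24.3 to 98.7 in WT ligated, 9.82 to 34.5 in CybbKO naive and 99.5 to 186 in CybbKO ligated libraries.

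Asprv1 (ENSMUSG00000033508; chromosome 6, plus strand, 86628164 to 86629710) encodes a retroviral-like aspartic protease, which is transcribed in mature neutrophils of the mouse and is also the protease that processes filaggrin in stratified epithelium. Asprv1 stood at 1413, 2187 and 1494 CPM in the WT naive and at 2659, 1337 and 1837 CPM in the CybbKO naive libraries. With ligature the WT libraries held 1797, 1079 and 925 CPM and the CybbKO libraries 1124, 1683 and 1014 CPM. The groups overlapped in all 4 comparisons. Its level per length was 819 to 1257 RPKM as a group mean, more than that of any other of the 10 genes in every library. Its log2 fold change with ligature was -0.42 in WT (SE 0.32, adjusted p = 0.498) and -0.61 in the libraries labelled CybbKO (SE 0.32, adjusted p = 0.239). Between the genotypes in ligated tissue the difference was 0.01 (SE 0.32). Asprv1 was highest of its group in WT naive replicate 2, WT ligated replicate 1 and CybbKO ligated replicate 2. In these libraries 6, 9 and 5 of the other 9 genes were lowest of their group. The CybbKO naive libraries ran the other way. There Asprv1 was highest in replicate 1, as were 7 of the other 9 genes, and lowest in replicate 2, as were all 9. The 3 genes with the closest pattern were Alox12b (0.110), the lipoxygenase of the epidermal barrier, Crybg2 (0.124) and Eps8l1 (0.136). In this tissue the data thus go against the name of the group for Asprv1, whose pattern was nearest to that of epithelial genes.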

How the data were processed

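Gingival mRNA was sequenced in 12 libraries, 3 per group, grouped from the labels. The values are raw counts per gene, deposited by the authors, with reads aligned to GRCm38 by STAR. The methods name featureCounts, and the submitters' processing notes name HTSeq 0.10.0 and FastQC 0.10.1, so the counter is not settled. Total counts were 27958819 to 42613423, which makes counting error small beside the spread between libraries for all but genes of few reads.

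Of 21965 genes, 15046 passed edgeR's filter on low counts. Counts were scaled by TMM and tested in a joint fit of the 12 libraries with the quasi-likelihood test of edgeR 4.0.16 (R 4.3.3) and Benjamini-Hochberg adjustment over all tested genes, in 5 comparisons that share libraries. DESeq2 1.42.0, other scaling, no filter, a replicate block, only the 6 libraries compared and leaving out single libraries were alternatives. The script was tested on simulated data. Log2 CPM used a prior count of 2, and RPKM the merged exon length of GENCODE M21, to which 21939 genes were matched. Promoter letters are from RefSeq.

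The members and the 19 other lists were chosen with earlier results of these data known. Named genes were the members, their families, the 3 genes most like each member, Cybb, and in each other list up to 4 called genes of smallest adjusted p and the 2 of highest mean CPM. Socs3, Spi1, Csf3 and the granule genes Mpo, Elane, Prtn3 and Ctsg were named outside this rule, after their values were seen. A gene among those most like the members is not reported here.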

Additional observations from a re-analysis of the deposited data

How the results depend on the processing

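Of the single-gene values for the 10 genes under the alternatives, 664 kept their direction and side of the threshold, 15 passed it newly, 7 lost it and 14 turned in sign. With ligature in WT the number of called genes was 481, and it was 1372 with DESeq2, 271 with the replicate block, 1516 without both WT naive replicate 3 and CybbKO ligated replicate 2 (an alternative chosen after seeing the data), and 27 (without WT naive replicate 2) to 737 (without WT naive replicate 3) with single libraries left out. The called members numbered 1, against 7 with DESeq2, 2 with library size only and 0 to 4 with single libraries left out. In the libraries labelled CybbKO 1954 genes were called, 3711 without those 2 libraries and 837 to 2949 with single libraries left out. Of the members 8 were called, and 7 to 9 with single libraries left out. Between the genotypes in ligated tissue 1 gene was called, 18 with DESeq2, 0 in the fit of only the 6 libraries compared and 0 to 2 with single libraries left out, and the members called numbered 0, and 1 with DESeq2. In naive tissue 1 gene was called, and 2 with DESeq2. For the difference between ligature responses 0 genes were called by edgeR, where 342 had an unadjusted p below 0.05, and 0 to 1 with single libraries left out. The cause of these changes was not tested.

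The sign of Asprv1 between the genotypes in ligated tissue turned with DESeq2 (-0.003837), DESeq2 size factors (-0.003739), library size only (-0.02061), only the 6 libraries compared (-0.009402) and without those 2 libraries (-0.2285), and ranged from -0.2459 (without CybbKO ligated replicate 2) to 0.3236 with single libraries left out (-0.09626 without WT ligated replicate 2 and -0.1756 without replicate 3). In naive tissue it turned without CybbKO naive replicate 3 for Slfn1 (-0.1925 to 0.7967 with single libraries left out), and without CybbKO naive replicate 1 for Retnlg (-0.1292 to 1.062) and Asprv1 (-0.0983 to 0.4195). In the difference between ligature responses it turned for Trem3 without WT naive replicate 1 (-0.8118 to 1.485 with single libraries left out) and for Asprv1 (from -0.4414 to 0.1205, the latter without WT ligated replicate 1, and 0.1053 without CybbKO naive replicate 1).

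Same-numbered libraries did not deviate together (correlations -0.228 to 0.277 over 18 pairs, with 2 of 12 libraries closest to their own number). The main fit did not pair libraries by number. With 3 libraries a group, such correlations cannot exclude a pairing. With the replicate block 1 member was called in WT and 8 in the libraries labelled CybbKO.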
